A study of Mus musculus with 24 samples.

Results

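Phenobarbital was given to mice that lack both CAR and PXR, and the liver transcripts of these mice were set against those of vehicle-treated liver of the same genotype. The 6 arrays titled for this combined deficiency, of 24 arrays in the series, were taken. Each array held liver RNA of a male C57BL/6J mouse deficient in both receptors, 9 to 12 weeks old, killed 12 h after an intraperitoneal dose of 100 mg/kg phenobarbital, labelled with Cy5. The second channel, in Cy3, held a pool of RNA from 6 livers of the same genotype, sex, strain and age after vehicle (5% DMSO in corn oil), so both channels lack both receptors. Positive log2 ratios therefore mean a higher level after phenobarbital. The other genotypes, with 6 arrays each, were wild type (WT), CAR-deficient and PXR-deficient, dosed and referenced in the same way by their protocols; the labels give no age for WT. The labels of WT replicate 1 disagree on its reference: the Cy3 channel is tagged with phenobarbital as its treatment but described elsewhere as the vehicle pool, which is how it was read. How the receptors were removed, and in which cells, is not given in the sources used here, and nothing in the labels says that each treated sample came from its own mouse. The p-values therefore reflect the scatter of the 6 samples, which may be partly technical. A single pool served as the reference, which leaves out the spread between vehicle-treated animals.

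CAR and PXR are nuclear receptors of the hepatocyte that respond to drugs and other foreign compounds. Each binds DNA as a partner of RXR and turns on genes of oxidation, conjugation and transport, the cytochrome P450 enzymes of the Cyp2b and Cyp3a families among them. Phenobarbital is the classical activator of CAR: it acts mainly by releasing CAR from the cytoplasm, through signalling at the epidermal growth factor receptor, rather than by binding it, and it can also activate PXR. Both receptors also act on genes of bile acid, cholesterol and glucose metabolism, and the study's title names drug metabolism and cholesterol homeostasis. The response of mice without both receptors therefore bears on what phenobarbital changes in liver when neither receptor is present. The Sterolgene V1 array carries 120 probes for mouse transcripts in 3 copies each. The files used here give the probes by number and do not pair them with genes, so no gene, pathway or cell type is named, and the loss of the receptors could not be checked on their own transcripts.

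Of the 120 probes, 100 passed the filter on dim spots and were tested. A probe passed if at least 2 of its spots exceeded the local background by 2 SD in either channel on at least 3 of the 6 arrays. Of the 20 that did not pass, 10 were above background on no array. Of the 100 tested, 69 had a value on all 6 arrays, 23 on 3 to 5 arrays and 8 on fewer, because flagged spots were left out. The 6 arrays gave a usable value for 80 to 102 probes, against 45 to 120 on the 18 arrays of the other genotypes. The 3 copies of a probe on an array had a median SD of 0.086 to 0.19 on the log2 scale, whereas the median SD between the 6 arrays was 0.30 over the 69 probes, so most of the spread arose between arrays rather than between spots. Precision was limited by there being 6 arrays.

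Replicates 1 and 2 stood apart from the other 4 before any probe was tested. Their median log2 Cy5/Cy3 ratio over the probes, before normalization, was -2.15 and -2.09, against -0.27 to -0.029 on the remaining 4. The calibration spots, which carry spike-in RNA, lay further off still, at -4.16 and -4.34 against -1.03 to -0.69. The probe median minus the calibration median was thus 2.01 in replicate 1 and 2.25 in replicate 2. It was 0.95, 0.76, 0.51 and 0.53 in replicates 3 to 6, while the 18 arrays of the other genotypes ran from -0.74 to 0.84. Relative to the control spots named Salmon, the same arrays lay nearer to the others. The probe median was -0.078 in replicate 1, the highest of these arrays, -0.30 in replicate 2 and between -0.66 and -0.26 on the rest. The labels of these arrays place the spike-in scorecard with the treated RNA and firefly luciferase with the pool, so equal amounts of either in both channels are not certain. Luciferase spots were above background in the pool channel at 49 of 108 spots and in the treated channel at 23 of 108, while spots meant to stay dark were above it at 20 and 15 of 72. Whether a difference in spike-in amount, labelling or total RNA accounts for the gap was not tested. Below, each result is given after loess normalization, which sets the average probe of each array to 0 and so shows change relative to the other probes, and then without replicates 1 and 2.

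**Figure D1:**
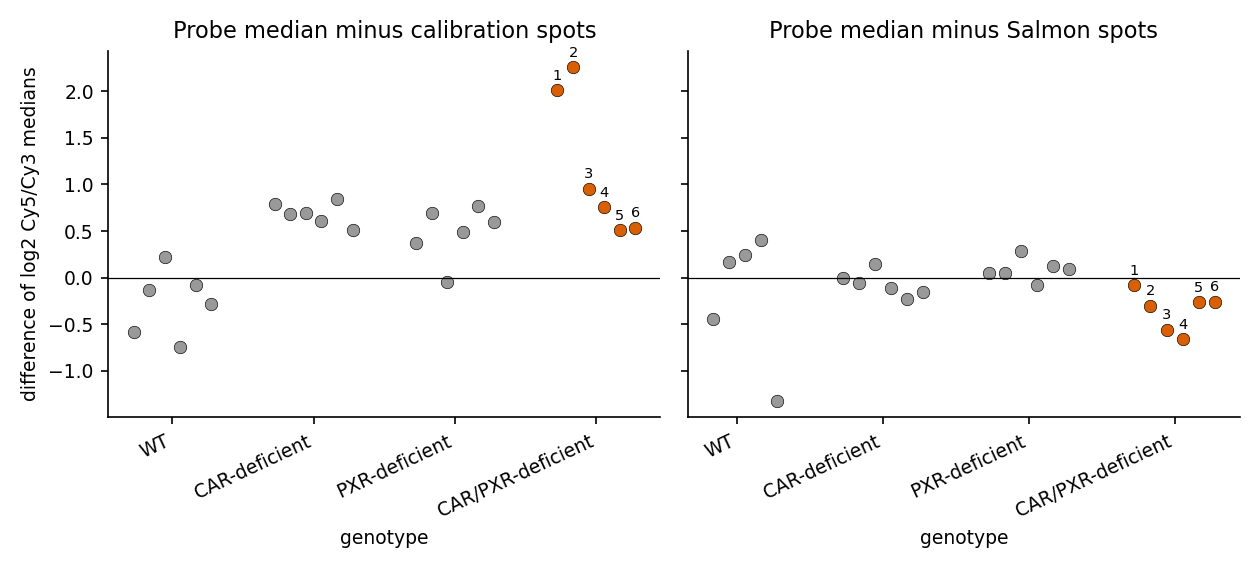
Median log2 Cy5/Cy3 ratio of the probes minus that of the calibration spots (left) and of the Salmon spots (right), before normalization, with 1 point per array by genotype and the replicate number written over the CAR/PXR-deficient arrays. In the left panel replicates 1 and 2 lie at 2.01 and 2.25, above all other arrays; in the right panel they lie at -0.078 and -0.30, within the range of the others.

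In liver without CAR and PXR, 5 probes (5% of the 100 tested) were higher after phenobarbital than in the pool and 6 (6%) were lower. These 11 in all (11%) had an adjusted p under 0.05 in limma. Treated RNA was in Cy5 and the single pool in Cy3 on all 6 arrays. A dye effect of a probe, or a trait of that pool, therefore cannot be told apart from a response to phenobarbital. The largest rise was that of Mm061, at 2.69-fold, and the largest fall that of Mm014, at 1.98-fold. Only 2 of the 11, Mm061 and Mm054, passed 2-fold and 8 passed 1.5-fold; for 9 of the 11 all 6 arrays had the same sign. At an unadjusted p under 0.05 there were 36 probes. Over all 100 probes the median log2 ratio was 0.010 and the median size of the log2 ratio 0.22. For 82 of the 100 the 95% interval of the mean lay within 2-fold of no change in both directions. In RNA of whole liver, a fall through fewer cells of a type cannot be told apart from a fall through less RNA per cell.

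Mm061 had the response with the smallest adjusted p. Its log2 ratio was 1.35, 1.36, 1.85, 1.84, 1.34 and 0.82 in replicates 1 to 6, so all arrays were above 0 and replicate 6 was the lowest. The mean was 1.43 ± 0.38 (SD, n = 6; SE 0.14, adjusted p = 0.000657). Both channels were above background on all 6 arrays, with a mean log2 intensity of 12.01 after phenobarbital and 10.58 in the pool. Mm061 was the single probe called both with all 6 arrays and without replicates 1 and 2, where its mean was 1.46 (SE 0.20, adjusted p = 0.0153). It also passed under each of the 25 other settings tried, with an adjusted p of at most 0.0153. All 25 reuse these arrays. Centring on calibration spots, and the authors' deposited values as they stand, put 58 to 77 of the 100 probes higher. Those settings therefore lend its rise no support.

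Mm054 and Mm095 followed. Mm054 ran from -0.26 in replicate 6 to 2.46 in replicate 4, with a median of 1.13, so 5 of 6 arrays were above 0 and replicate 6 was below it. Its mean was 1.09 ± 0.88 (SD, n = 6; SE 0.29, adjusted p = 0.0498), a 2.12-fold rise that lay on the threshold. Mm095 ran from 0.28 in replicate 4 to 1.63 in replicate 5, with a median of 0.85, and all 6 arrays were above 0. The mean was 0.89 ± 0.47 (SE 0.16, adjusted p = 0.0135), or 1.86-fold. The probe was above background in treated liver on all 6 arrays and in the pool on 4, so the size of the rise rests on a dim reference. The 2 probes did not share an order over the arrays: replicate 4 was the highest for Mm054 and the lowest for Mm095.

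The other 2 rises were small and even. Mm098 ran from 0.093 to 0.67 with a median of 0.48, and its mean of 0.44 ± 0.20 (SE 0.093, adjusted p = 0.0166) was a 1.36-fold rise. Mm037 ran from 0.14 to 0.65 with a median of 0.37, with a mean of 0.41 ± 0.19 (SE 0.091, adjusted p = 0.0197), a 1.33-fold rise. All 6 arrays were above 0 for both.

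Among the 6 probes that fell, Mm014 moved the furthest. It ran from -1.61 in replicate 2 to 0.073 in replicate 6, with a median of -1.12, so 5 of 6 arrays were below 0 and replicate 6 was not. The mean was -0.99 ± 0.57 (SD, n = 6; SE 0.20, adjusted p = 0.0135). Mm032 ran from -1.32 to -0.33 (median -0.70) and had a mean of -0.80 ± 0.45 (SE 0.16, adjusted p = 0.0135), a 1.74-fold fall. Mm133 ran from -1.24 to -0.083 (median -0.83) and had a mean of -0.79 ± 0.40 (SE 0.15, adjusted p = 0.0135), a 1.72-fold fall. For Mm032 and Mm133 all 6 arrays were below 0, and in Mm133 replicate 6 was again the one nearest to 0.

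The remaining 3 falls were of about 1.5-fold. Mm027, the brightest of the 11 with a mean log2 intensity of 13.25 in the pool, ran from -1.15 to -0.19 (median -0.56), and its mean was -0.64 ± 0.37 (SE 0.14, adjusted p = 0.0166). Mm002 ran from -1.02 to -0.32 (median -0.57), with a mean of -0.60 ± 0.24 (SE 0.10, adjusted p = 0.0135). Mm015 ran from -0.75 to -0.21 (median -0.48), with a mean of -0.49 ± 0.20 (SE 0.095, adjusted p = 0.0135). All 6 arrays were below 0 for each of the 3, so none of the falls except that of Mm014 had an array on the other side of 0.

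**Figure D2:**
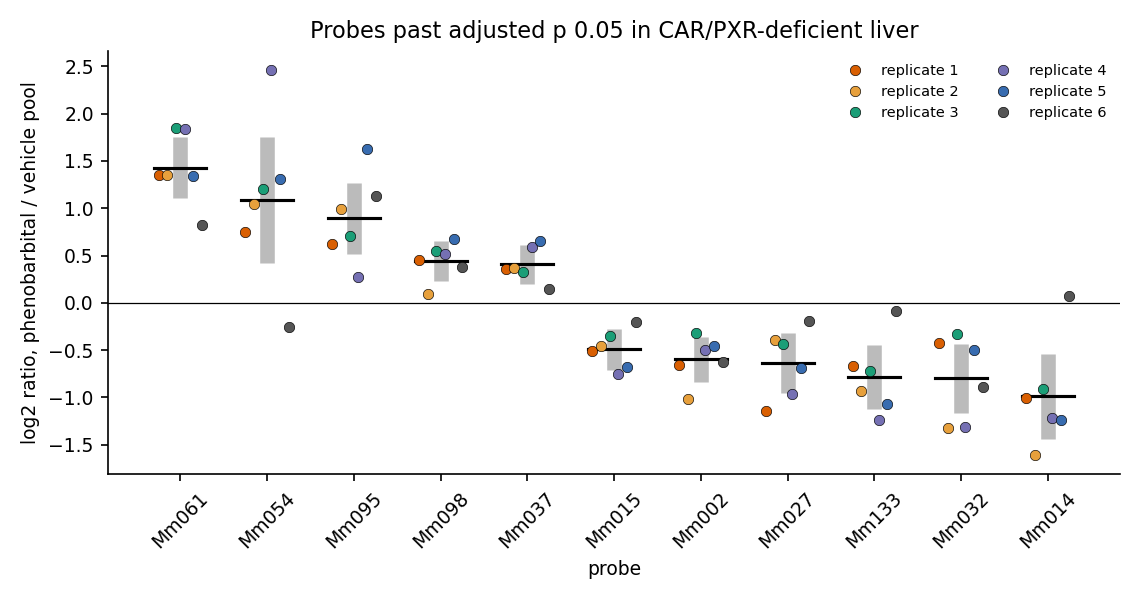
Log2 ratio of phenobarbital-treated liver over the vehicle pool after loess for the 11 probes past an adjusted p of 0.05, with 1 point per array, a black line at the mean and a grey bar for its 95% interval. Mm061 lies between 0.82 and 1.85 on the 6 arrays, and replicate 6 (dark grey) is the point nearest to, or past, 0 for 7 of the 11 probes.

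Replicate 6 gave the weakest response for 7 of the 11 probes, with a mean log2 ratio of 0.38 in the direction of each probe's own change. The same mean was 0.70 to 1.06 on the other 5 arrays and was highest in replicate 4. The called set therefore hung on single arrays. Without replicate 6 there were 21 calls and without replicate 4 there were 19, and both sets held all 11 probes. Without replicate 3 the calls fell to 2 and without replicate 5 to 4, all of them among the 11; without replicate 1 there were 10 (10 of the 11) and without replicate 2 there were 11 (9 of the 11). Mm061 and Mm002 kept their call whichever single array was left out, with adjusted p of at most 0.0102 and 0.0398. The other 9 each lost it without replicate 3, Mm095 and Mm032 in that fit only. Their highest adjusted p was 0.0567 to 0.0756, except for Mm037 (0.0955) and Mm054 (0.135). Any 2 of the 6 arrays differed by at least 2.11 times the variance expected from replicate spots, so all 6 were counted, although this does not show that they are separate animals. The correlation between arrays over probes after loess ran from -0.020 (replicates 4 and 6) to 0.77, with a median of 0.59.

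Without replicates 1 and 2, whose calibration spots lay far from the probes, 2 of 100 probes passed (2%), Mm061 as the single rise (1%) and Mm059 as the single fall (1%). All 11 probes kept their sign over the 4 remaining arrays. All 11 had an unadjusted p under 0.05 in limma, as had 23 of the 100 probes in all. These 4 arrays were among those by which the 11 were picked. The signs, these p-values and the means below are therefore no separate test of the 11. After adjustment 10 of the 11 no longer passed, with adjusted p from 0.0759 (Mm098) to 0.136 (Mm054). Their means moved little: Mm054 was 1.18, Mm095 0.94, Mm098 0.53 and Mm037 0.43 among the rises, and Mm014 was -0.83, Mm133 -0.78, Mm032 -0.76, Mm027 -0.57, Mm015 -0.50 and Mm002 -0.48 among the falls. Mm059, named because it is the other of these 2 calls, had log2 ratios of -0.016 and 0.24 in replicates 1 and 2 and -0.73, -1.47, -1.34 and -0.89 in replicates 3 to 6. Its 2 first replicates thus lay near 0, apart from the other 4. Its mean was -1.11 over those 4 arrays (SE 0.16, adjusted p = 0.0153) and -0.70 ± 0.69 over all 6 (adjusted p = 0.0718).

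The direction of the 6 falls held only relative to the other probes on the array. When each array was centred on its calibration spots instead, the median over the 100 probes rose to 1.11 on the log2 scale, 77 probes were higher (77%) and 0 were lower (0%) in limma, with 78 at an unadjusted p under 0.05. All probes of an array share its centre, so these 77 are not separate observations. Mm061 was then at 2.61 and Mm054 at 2.24 (SE 0.34 each). The 6 probes that fell after loess were all above 0, from 0.093 for Mm014 to 0.71 for Mm015; of them Mm015 passed as a rise (adjusted p = 0.0486). On replicates 3 to 6 alone the median shift was 0.66 and 58 probes were higher (58%) and 0 lower (0%), with 63 at an unadjusted p under 0.05. All 5 rises passed there, while 3 of the 6 falls were above 0 and 0 of the 6 passed, from -0.21 (Mm014) to 0.31 (Mm015). In the authors' deposited value table, whose medians on the 6 arrays were 2.65, 2.95, 0.98, 0.78, 0.39 and 0.49, 58 probes were higher and 0 lower. With calibration centring and in the authors' table, all 100 means over the 6 arrays were above 0, the lowest at 0.093 and 0.19. The sign of a rise there was thus set by the shared shift and lends the 5 rises no support. Mm061, Mm054, Mm095, Mm098 and Mm037 were above 0, and the 6 falls below 0, with loess, print-tip loess and median centring, which show change relative to the other probes.

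**Figure D3:**
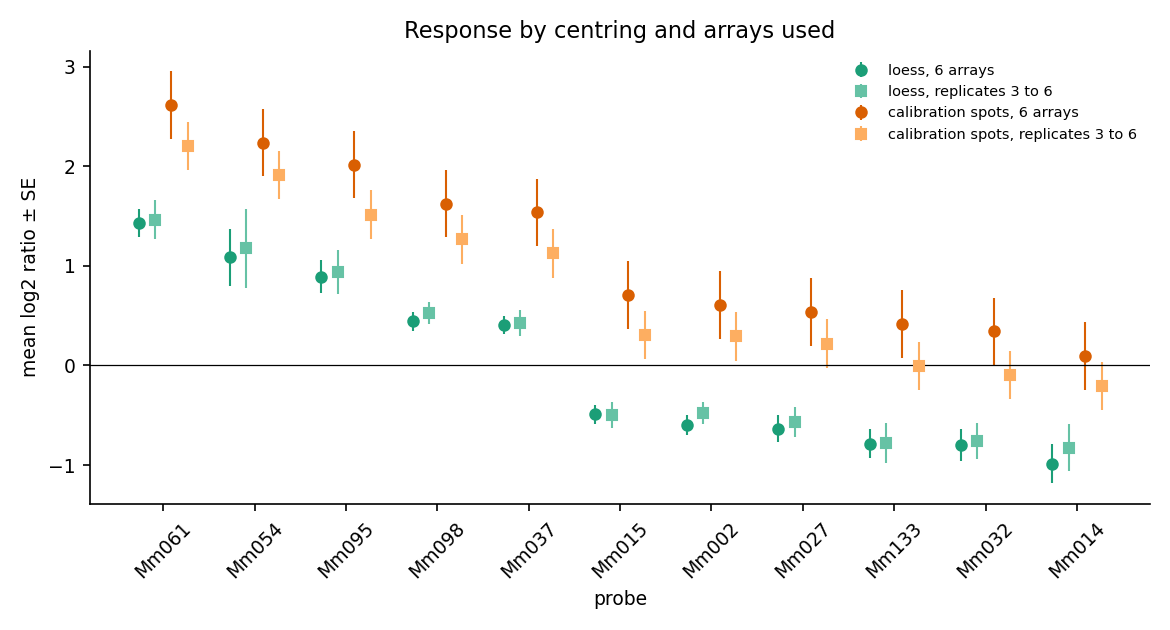
Mean log2 ratio with its SE for the 11 called probes after loess (green) and after centring on calibration spots (orange), with all 6 arrays (circles) or replicates 3 to 6 (squares). The 5 rises lie above 0 in all 4 versions, while the 6 falls lie below 0 after loess and from -0.21 to 0.71 after calibration centring.

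**Figure D4:**
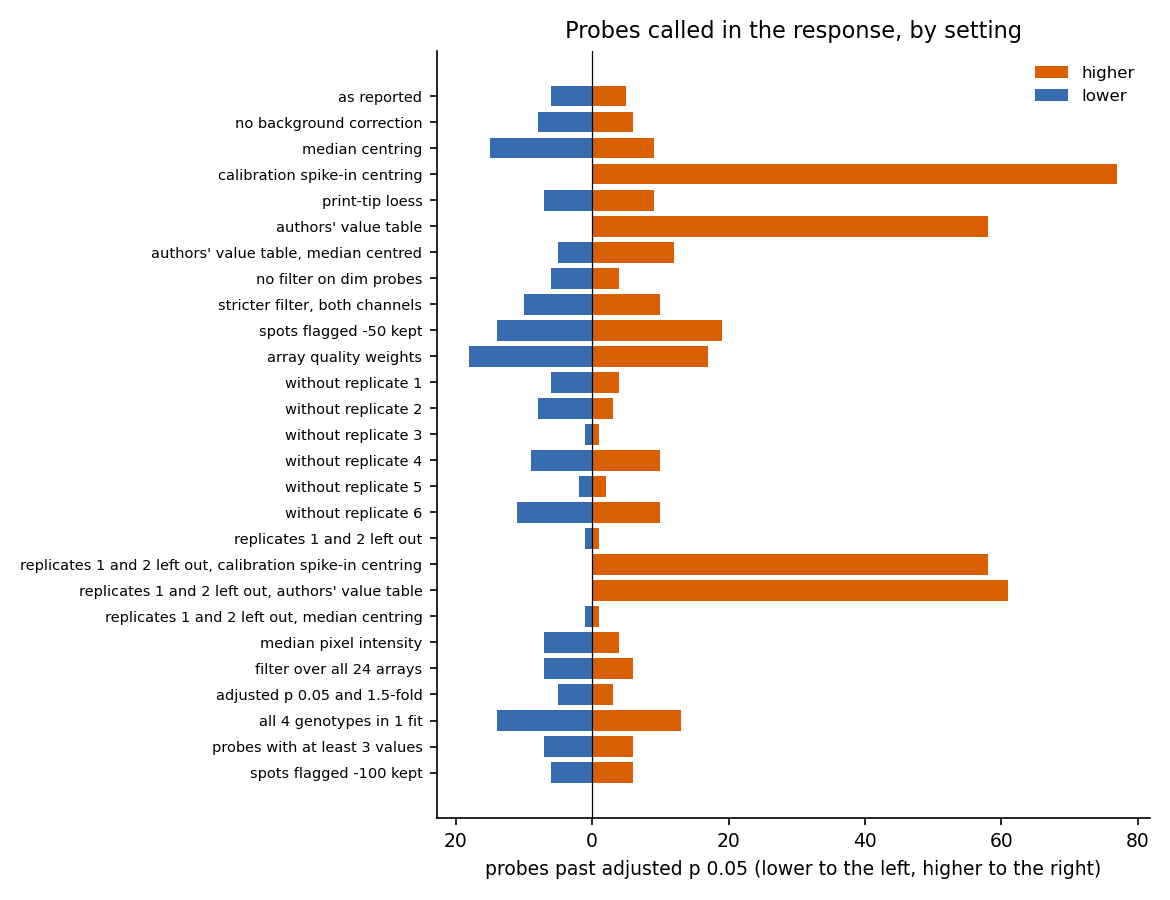
Number of the probes tested that passed an adjusted p of 0.05 in the response of CAR/PXR-deficient liver, higher to the right and lower to the left, under each processing setting. The count was 11 as reported, 2 without replicates 1 and 2 or without replicate 3, and 77 higher with 0 lower after centring on calibration spots.

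Some probes sat just outside the threshold. Mm016 ran from -0.096 in replicate 3 to 1.64 in replicate 4 (median 0.65), with a mean of 0.76 ± 0.61 (SE 0.21, adjusted p = 0.0503). Mm013 was below 0 on all 6 arrays, from -1.06 in replicate 6 to -0.18 (median -0.40), with a mean of -0.45 ± 0.32 (SE 0.12, adjusted p = 0.0503). Mm012 ran from -0.99 to 0.031 (median -0.53), with a mean of -0.51 ± 0.41 (SE 0.15, adjusted p = 0.0549). Mm062 had a median of 0.47 and a mean of 0.40 ± 0.31 (SE 0.12, adjusted p = 0.0549), with replicate 4 as its single value below 0. Just inside lay Mm054 (0.0498), so the threshold separated it from Mm016 and Mm013 by a very small difference in adjusted p. The next calls, Mm037 (0.0197) and Mm027 (0.0166), were further inside. Among the 69 probes with 6 values, 10 were above 0 on all 6 arrays (14.5%) and 11 were below 0 on all 6 (15.9%), of which 4 and 5 were called. The others included Mm084 at -0.21 ± 0.043 and Mm157 at -0.12 ± 0.064, which were even between arrays but small, with adjusted p = 0.0718 and 0.275.

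Of 8 probes picked for their phenobarbital response in WT or PXR-deficient liver, with those responses known, 1 passed the threshold here (Mm037), beside 11% of all probes tested, so the count says nothing particular about these 8. Mm038 and Mm039 had a mean log2 ratio of 3.01 ± 0.75 and 2.66 ± 0.67 in WT (n = 6). In CAR/PXR-deficient liver they could be read on 3 of 6 arrays, with log2 ratios of -1.18, -0.22 and 1.09 for Mm038 and -1.27, -0.23 and 0.85 for Mm039 in replicates 1, 3 and 4. The 2 probes gave like values on each array, on both sides of 0, and phenobarbital-treated liver gave a signal above background on 2 of 6 arrays for each. The means were -0.10 ± 1.14 (SE 0.43, adjusted p = 0.894) and -0.22 ± 1.06 (SE 0.40, adjusted p = 0.705). Their 95% intervals after loess, -1.19 to 0.99 and -1.24 to 0.81, did not reach the WT means. With calibration centring, where 77 of 100 probes passed, both passed as rises, at 1.01 and 1.03 (adjusted p = 0.0473 and 0.0438 in limma). On replicates 3 to 6 that centring put them at 1.20 and 1.07 (adjusted p = 0.00222 and 0.00558). Over all arrays they then still differed from WT, by -1.74 and -1.41.

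Mm036, Mm050, Mm051 and Mm052 did not pass either. Mm036 ran from -0.28 to 0.20 around a mean of -0.018 (SE 0.086, 95% interval -0.22 to 0.18, adjusted p = 0.896). Mm051 ran from -0.069 to 0.21, with a mean of 0.096 (SE 0.076, 95% interval -0.079 to 0.27, adjusted p = 0.400). Mm050 was less even, from -0.18 to 0.86 with a median of 0.30, and its mean of 0.34 ± 0.36 (SE 0.13) had an adjusted p of 0.0974. Mm052 was the brightest of these, and saturated spots were left out, so that 2 arrays remained, with -0.56 and -0.021. With saturated spots kept, its mean over the arrays was -0.66 (adjusted p = 0.0772). Mm037, named among the rises above, was the one probe of this set that passed, at 0.41. Mm001 ran from -0.24 to 0.32 with a mean of 0.029 (SE 0.098, 95% interval -0.20 to 0.25, adjusted p = 0.859), and 3 of its arrays lay on each side of 0.

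The responses were then compared between genotypes in a fit of all 4, in which PXR-deficient replicates 1 and 2, alike within spot noise, counted as 1 sample, leaving 23. A dye effect shared by all arrays cancels in such a difference, whereas it does not in a response, since dyes were not swapped. The comparisons with the 3 other genotypes share the CAR/PXR-deficient arrays. WT replicates 2 and 6 were nearly as alike as the merged pair, with a correlation of 0.983 against 0.978. They differed by 1.79 times the variance expected from replicate spots, against 1.04 for the merged pair, and so were counted as 2 samples. Whether they came from separate mice was not tested. In this fit the CAR/PXR-deficient response itself gave 27 calls of 80 probes (33.8%), 13 higher (16.2%) and 14 lower (17.5%), with the spread pooled over genotypes; 8 of the 9 called probes that could be tested in it passed again. Mm095 and Mm032 could not be tested between genotypes. Mm095 was above background in either channel on 1 array of WT, 1 of CAR-deficient and 0 of PXR-deficient liver. Mm032 was above background on no CAR-deficient array.

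Against WT, the response differed for 10 of 80 probes (12.5%), 4 higher (5%) and 6 lower (7.5%) without both receptors. Mm061 differed the most upward. In WT it ran from -2.11 to 0.30 (median -0.12), with a mean of -0.58 ± 0.98 (n = 6), so no WT array reached the lowest CAR/PXR-deficient array at 0.82. The difference was 2.004 (SE 0.35, adjusted p = 0.000193). In WT the treated channel was above background for Mm061 on 4 of 6 arrays and the pool on 6, so the WT values rest partly on a dim treated channel. Mm062 ran from -0.61 to -0.29 (median -0.50) in WT against -0.099 to 0.76 here, again without overlap, and differed by 0.87 (SE 0.14, adjusted p = 0.000148). Mm098 differed by 0.50 (SE 0.13, adjusted p = 0.0170) and Mm042, which did not pass as a response here (0.10 ± 0.19), was higher by 0.41 (SE 0.12, adjusted p = 0.0248); both overlapped with WT.

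Downward, Mm038 and Mm039 differed from WT by -3.11 (SE 0.50, adjusted p = 0.000347) and by -2.88 (SE 0.43, adjusted p = 0.000193). Their 3 values here lay below all 6 WT values, which ran from 1.87 to 3.92 and from 1.58 to 3.27. The WT pool was above background for them on 1 of 6 arrays, so the WT folds rest on a dim reference. Mm027 differed by -0.76 (SE 0.21, adjusted p = 0.0191), with WT values from -0.53 to 0.62, and Mm133 by -0.53 (SE 0.17, adjusted p = 0.0463), with WT values from -0.70 to 0.30; both overlapped. The calls of Mm061, Mm062, Mm098, Mm038 and Mm039 were kept when any single array of either genotype was left out. With replicates 1 and 2 left out, their differences were 2.04, 0.87, 0.59, -2.57 and -2.35, with adjusted p of at most 0.00942. Mm027 lost its call without CAR/PXR-deficient replicate 1 (adjusted p = 0.0520). Mm042 lost it without CAR/PXR-deficient replicates 1, 2 or 3 or WT replicates 2 or 6, up to an adjusted p of 0.0691. Mm133 lost it without 9 of the 12 arrays in turn, up to 0.0973, and was kept only without CAR/PXR-deficient replicate 6 or WT replicates 1 or 4. The number called ran from 5 to 14 over these 12 fits, with 5 without CAR/PXR-deficient replicate 1, 6 without replicate 2 and 6 without replicate 3. Without WT replicate 1, whose labels disagree on the reference, there were 14, and the calls of Mm061, Mm062, Mm098, Mm042, Mm038, Mm039, Mm027 and Mm133 were kept. Other processing ended some calls: in the authors' deposited table the differences of Mm038 and Mm039 were -0.83 and -0.56 (adjusted p = 0.102 and 0.297), and Mm098 missed the threshold with print-tip loess (0.48, adjusted p = 0.101) and with the 2 genotypes fitted alone (adjusted p = 0.0704). Mm042, Mm027 and Mm133 missed it with print-tip loess too (adjusted p = 0.280, 0.123 and 0.101). The split of directions also depended on the centring: 72 probes were higher and 2 lower with calibration centring, and 60 and 1 in the authors' table. With calibration centring Mm133 turned to 0.97 and Mm027 to 0.26.

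Against CAR-deficient liver, 6 of 78 probes differed (7.69%), 1 higher (1.28%) and 5 lower (6.41%). The single higher probe was Mm062, by 0.50 (SE 0.14, adjusted p = 0.0298), whose CAR-deficient values ran from -0.26 to 0.042. Mm014 was lower by 0.90 on the log2 scale (difference -0.90, SE 0.23, adjusted p = 0.0298); it ran from -0.30 to 0.34 in CAR-deficient liver, so 5 of the 6 arrays here lay below all of those and replicate 6 among them. The others were Mm012 (-0.82, SE 0.19), Mm013 (-0.63, SE 0.16), Mm027 (-0.69, SE 0.21) and Mm002 (-0.60, SE 0.18), with adjusted p of 0.0298 to 0.0424. The split of directions depended on the centring, with 8 higher and 0 lower after calibration centring (1 of these 8 among the 6) and 17 higher and 0 lower in the authors' deposited table, at 19 and 35 probes with an unadjusted p under 0.05 in limma. With median centring 0 passed in limma (17 at an unadjusted p under 0.05). Single arrays also decided this count. With limma, 0 probes passed in 6 of the 12 fits that left out 1 array (CAR/PXR-deficient replicates 1 or 5, CAR-deficient replicates 2, 3, 5 or 6), and the count ran up to 8, while 15 to 21 probes kept an unadjusted p under 0.05. Mm014 was also lost without CAR-deficient replicate 1, and Mm027 without CAR/PXR-deficient replicate 4 or CAR-deficient replicates 1 or 4, with highest adjusted p of 0.0770 and 0.0960. When replicates 1 and 2 were left out, 1 probe passed and it was none of the 6; the differences of Mm062, Mm014, Mm012, Mm027 and Mm013 were then 0.50, -0.73, -0.64, -0.62 and -0.71, at adjusted p of 0.0630 to 0.112. Mm061 did not pass against CAR-deficient liver (difference 1.0004, SE 0.35, adjusted p = 0.0704). Its CAR-deficient values ran from -0.51 to 0.89 (mean 0.43 ± 0.51, n = 6) and overlapped with those here.

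Against PXR-deficient liver, in which CAR is present, 26 of 80 probes differed (32.5%), 11 higher (13.8%) and 15 lower (18.8%). The largest upward differences were those of Mm001 and Mm024, whose ratios were below 0 in all PXR-deficient samples measured and not here. Mm001 ran from -2.44 to -1.93 in PXR-deficient liver and from -0.24 to 0.32 here, a difference of 2.13 (SE 0.35, adjusted p = 7.97e-05). Mm024, measured on 4 arrays here (0.22 to 1.45) and in 3 PXR-deficient samples (-1.32 to -0.89), differed by 1.76 (SE 0.37, adjusted p = 0.00498). Neither probe's ranges overlapped between the genotypes. For Mm024 the treated channel was above background on 2 of 6 PXR-deficient arrays and the pool here on 3 of 6. The size of its difference thus rests partly on dim signal. Mm061 differed by 1.10 (SE 0.36, adjusted p = 0.0243) and Mm054 by 0.90 (SE 0.31, adjusted p = 0.0265), and both were rises of the CAR/PXR-deficient response. Mm061 overlapped with the PXR-deficient samples, which ran from -0.43 to 0.95, and so did Mm054, through replicate 6.

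The largest downward differences were those of Mm038, Mm039, Mm052 and Mm051, whose ratios were above 0 in all PXR-deficient samples measured. Mm038 was at 3.43 ± 0.62 and Mm039 at 3.05 ± 0.48 there (n = 5 each), and the differences were -3.53 (SE 0.51, adjusted p = 9.58e-05) and, for Mm039, -3.27 (SE 0.44, adjusted p = 7.97e-05). The PXR-deficient pool was above background for them on 2 and 3 of 6 arrays, so these folds rest on a dim reference. Mm051 ran from 1.25 to 1.76 there and from -0.069 to 0.21 here, a difference of -1.35 (SE 0.22, adjusted p = 7.97e-05). Mm052 differed by -2.14 (SE 0.47, adjusted p = 0.00318), over 2 values in each genotype. Mm050 and Mm037, with 1.46 ± 0.42 and 1.52 ± 0.51 in PXR-deficient liver, differed by -1.12 each (SE 0.21 and 0.25, adjusted p = 0.000216 and 0.00148). Mm027 and Mm133, falls of the response here, had smaller means of 0.52 and 0.31 in PXR-deficient liver. They differed by -1.15 and -1.10 (SE 0.22 and 0.18, adjusted p = 0.00031 and 7.97e-05). Mm037 was above 0 in all samples of both genotypes. The calls of Mm001, Mm024, Mm061, Mm038, Mm039, Mm051 and Mm052 were kept whichever single array was left out. That of Mm054 was lost without CAR/PXR-deficient replicate 4 or PXR-deficient replicates 4 or 6, up to an adjusted p of 0.0589, and with the 2 genotypes fitted alone (0.0798). That of Mm051 was lost in the authors' deposited table (difference -0.38, adjusted p = 0.402). With calibration centring 30 probes were higher and 4 lower, and in the authors' table the counts were 34 and 3, so the near balance of directions held only relative to the other probes. Without replicates 1 and 2, calibration centring gave 9 higher and 8 lower. After loess there were then 18 calls, all among the 26, and Mm061 just missed the threshold (difference 1.14, adjusted p = 0.0589).

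**Figure D5:**
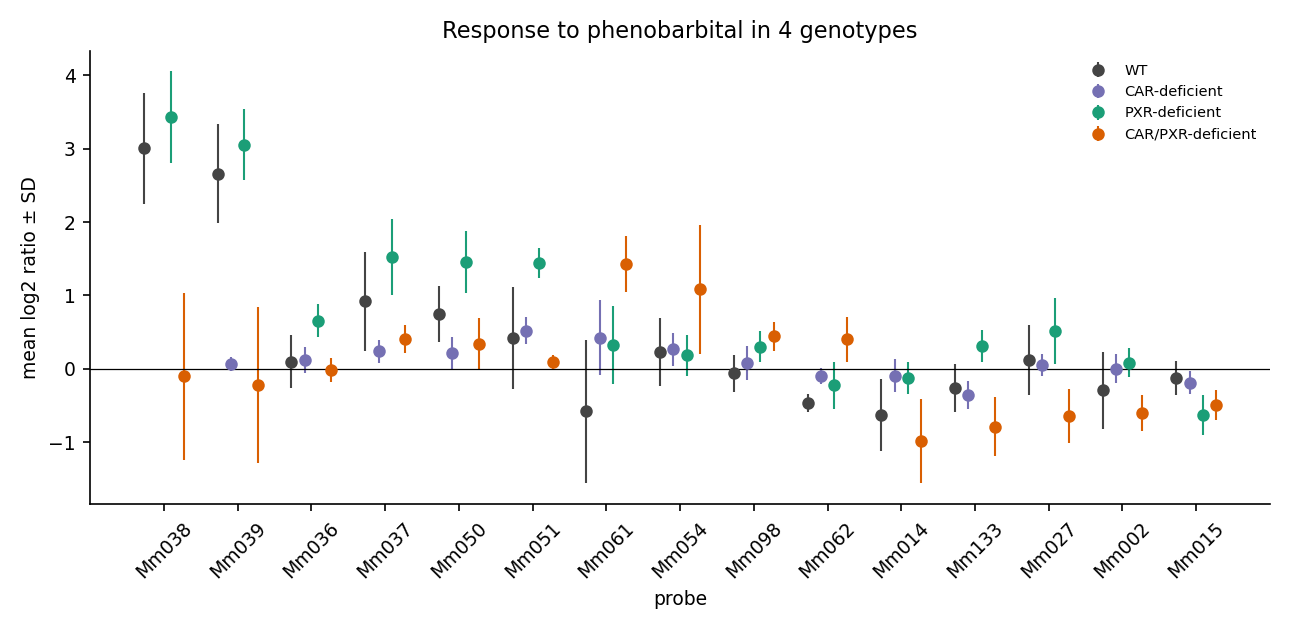
Mean log2 ratio of phenobarbital over the vehicle pool with its SD for 15 probes in WT, CAR-deficient, PXR-deficient and CAR/PXR-deficient liver after loess (3 to 6 samples each here and 2 to 6 in the other genotypes; Mm038 had no value in CAR-deficient liver). Mm038 and Mm039 lie near 3 in WT and PXR-deficient liver and at -0.10 and -0.22 in CAR/PXR-deficient liver, while Mm061 lies at 1.43 in CAR/PXR-deficient liver and at -0.58 in WT.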

How the data were processed

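Each array's spot file holds, per the file headers, mean and median pixel intensity in both channels, the local background intensity and its SD, the saturated pixels in percent and, for each spot, a flag. The deposited value table holds log2 ratios, which followed the raw log2 Cy5/Cy3 ratios on the 6 arrays (r of 0.80 to 0.99); how the authors centred them is not given in the sources used here. Scanner, software and the meaning of the flags are also not given there. All 53 probe spots of flag -100 had saturated pixels.

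With R 4.3.3 and limma 3.58.1, background was corrected by normexp (offset 50), which draws ratios of dim spots toward 0. Loess was fitted within each array to the unflagged spots of the probes; spots with a flag were dropped, and the copies left were averaged. The response was the mean over the 6 arrays against 0 (lmFit, eBayes). Differences between genotypes came from 1 fit of all groups, over probes above background on at least 12 of 24 arrays. P-values were adjusted by Benjamini-Hochberg within each comparison. Calls use an adjusted p of 0.05, and SEs are moderated ones. The scripts were tested on simulated data. Figures used Python 3.11.15 and matplotlib 3.10.9.

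Members, probes and lists were chosen with earlier results of these data known. Probes were named by rule: up to 12 highest and 12 lowest calls of the response, calls kept without replicates 1 and 2, 3 probes on each side of the threshold, up to 4 highest and 4 lowest calls per difference, 15 probes named in any case, and called probes whose sign turned and passed under another centring. Mm059, Mm084, the difference of Mm002 and those of Mm027 and Mm133 from PXR-deficient liver were added after their values were seen. The planned gene lists and markers could not be tested without gene names.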

Additional observations from a re-analysis of the deposited data

Results flagged for a closer look

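Of 27 groups of 6 values examined for 1 value standing apart, 2 held one; chance gives about 1 in 20. Mm013 was at -1.06 in replicate 6, against -0.47 to -0.18 on the other 5 arrays. The difference between the control spots named ratio 2 and ratio 1 was 1.79 in replicate 1, against 2.36 to 2.62 on the others, and replicate 1 is one of the 2 arrays whose calibration spots lay far from the probes.

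By the contrast test of limma, the response differed between genotypes for the 21 pairs of probe and genotype named by rule. The rule took only pairs that passed, so their number follows from it, and other pairs given above passed as well. Against WT, Mm061 was higher by 2.004 on the log2 scale, Mm062 by 0.87, Mm098 by 0.50 and Mm042 by 0.41. Mm038 differed by -3.11, Mm039 by -2.88, Mm027 by -0.76 and Mm133 by -0.53. Against CAR-deficient liver, Mm062 was higher by 0.50, and Mm014 differed by -0.90, Mm012 by -0.82, Mm027 by -0.69 and Mm013 by -0.63. Against PXR-deficient liver, Mm001 was higher by 2.13, Mm024 by 1.76, Mm061 by 1.10 and Mm054 by 0.90, and Mm038 differed by -3.53, Mm039 by -3.27, Mm052 by -2.14 and Mm051 by -1.35. Mm062 passed upward against both WT and CAR-deficient liver, although its own response missed the threshold here. The receptors' own transcripts could not be read, so the genotype behind each difference rests on the labels.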

How the results depend on the processing

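Of the 11 calls of the response, Mm061 passed in all 25 other settings. The 5 rises kept their sign in every setting that tested them, and the 6 falls kept theirs in each of those that centre an array on its probes. With calibration centring and in the authors' table all 100 probes were above 0 over the 6 arrays, so those settings do not test the sign of a rise. The count of 11 became 24 (9 higher, 15 lower) with median centring, 17 in the authors' table after median centring, 20 with a filter on both channels, 33 with spots of flag -50 kept, 35 with array quality weights and 27 with all genotypes in 1 fit. It became 77 with calibration centring and 58 in the authors' table, and without replicates 1 and 2 it was 2, or 58 with calibration centring, 61 in the authors' table and 2 with median centring. Leaving out 1 array gave 2 to 21. It moved by less than 1.5 times without background correction, with print-tip loess, with no filter, with the filter over 24 arrays, with median pixels, with a 1.5-fold minimum, and, chosen after seeing the data, with at least 3 values or saturated spots kept.

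The 10 differences from WT became 16 with median centring, 74 with calibration centring, 5 with print-tip loess, 61 in the authors' table (18 median centred) and 4 with the 2 genotypes alone. Without replicates 1 and 2 there were 6, or 62 with calibration centring and 57 in the authors' table. Leaving out 1 array gave 5 to 14. The 6 differences from CAR-deficient liver became 11 without background correction, 17 in the authors' table (15 median centred), 1 with spots of flag -50 kept and 19 with array quality weights. With median centring limma called 0 (17 at an unadjusted p under 0.05). With both left out there was 1, and 0 with calibration centring, in the authors' table or with median centring (10, 13 and 14 at an unadjusted p under 0.05). Leaving out 1 array gave 0 to 8. The 26 differences from PXR-deficient liver became 17 and 14 without replicates 1 and 2 under calibration and median centring, and 19 to 28 when 1 array was left out. Counting all 24 arrays gave 12, 7 and 34.

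Replicate numbers did not pair the samples: the correlation of same-numbered deviations ran from -0.46 to 0.68, with 6 of 18 over 0.1, and in 1 of 18 cases did an array correlate best with its own number. With the replicate number as a block, the differences were 15 (WT), 12 (CAR-deficient) and 31 (PXR-deficient).

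Signs turned as follows; for centring on spots outside the probes the shared shift of the array sets this, and otherwise the cause was not tested. With calibration centring Mm014 was at 0.093, Mm032 0.34, Mm133 0.42, Mm027 0.54, Mm002 0.61, Mm015 0.71, Mm013 0.54, Mm012 0.58, Mm038 1.01, Mm039 1.03, Mm036 1.16, Mm052 0.61 and Mm157 1.10. In the authors' table the same probes were at 0.36, 0.65, 0.80, 0.74, 0.95, 1.06, 0.64, 0.95, 1.26, 1.27, 1.37, 0.19 and 1.499. After median centring of that table Mm039 was at 0.39 and Mm157 at 0.12. On replicates 3 to 6, calibration centring put Mm027 at 0.22, Mm002 0.29, Mm015 0.31, Mm012 0.23, Mm038 1.20, Mm039 1.07, Mm036 0.83, Mm052 0.61 and Mm157 0.69. The authors' table then put Mm133 at 0.13, Mm027 0.29, Mm002 0.44, Mm015 0.45, Mm013 0.095, Mm012 0.41, Mm038 1.27, Mm039 1.27, Mm036 0.89, Mm052 0.19 and Mm157 0.83. With loess on those 4 arrays Mm038 was at 0.44, Mm039 0.31 and Mm036 0.029, and with median centring 0.35, 0.22 and 0.14. Mm001 was at -0.043 with median centring and print-tip loess and -0.022 with spots of flag -50 kept, where Mm039 was at 0.018. Mm001 was thus near 0 in these settings, but with calibration centring its arrays ran from 0.42 to 2.03. Mm036 was at 0.0021 with array quality weights. Leaving out 1 array put Mm001 between -0.030 (replicate 4) and 0.083 (replicate 6), Mm038 between -0.70 (replicate 4) and 0.44 (replicate 1), Mm039 between -0.75 (replicate 4) and 0.31 (replicate 1) and Mm036 between -0.062 (replicate 5) and 0.034 (replicate 1). Against WT, Mm027 turned to 0.26 and Mm133 to 0.97 with calibration centring and to 0.58 and 1.21 in the authors' table. Without replicates 1 and 2, Mm133 was at 0.54 under both and Mm027 at 0.13 in the table. Against CAR-deficient liver, Mm012 was at 0.33 and Mm013 at 0.22 in the table. None of the highest and lowest differences from PXR-deficient liver, as named by rule, turned. The median of the probes relative to the calibration spots, 0.85, stayed between 0.65 and 0.99 under the 4 settings added after seeing the data. Probes near background, Mm038 and Mm039 above all, are limited by the signal of the dim channel.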
